A study of Mus musculus with 6 samples.

Results

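The liver strips amino acids of their nitrogen and burns or recycles the carbon that remains, and 58 listed genes that encode enzymes of this work were examined here in mouse livers with and without the histone demethylase LSD1. Rows were taken by gene symbol, from a list drawn up with earlier results of these data known. The list covers the urea cycle, the aminotransferases and the breakdown routes of tyrosine, tryptophan, histidine, serine, threonine, glycine, proline, the branched-chain amino acids and the sulphur amino acids. All 58 were found among the 27179 rows of the deposited table, and 57 of them were among its 14257 tested genes. The remaining one, Tdh, encodes threonine dehydrogenase and was listed at a base mean of 0.

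Bulk liver RNA was compared between 2 groups of C57BL/6 mice, Control (n = 3) and LSD1-LKO (n = 3). Both groups carried floxed Lsd1 (gene symbol Kdm1a), received an AAV8 vector through the tail vein at 6 to 7 weeks of age and ate a high-fat diet from 1 week later. The vector encoded Cre in LSD1-LKO mice and GFP in Control mice, in each case under the TBG promoter. The paper used this promoter to restrict the deletion to hepatocytes. Whether the other cells of the liver kept LSD1 cannot be seen in bulk RNA. The series text gives 12 weeks of diet whereas the methods describe an earlier collection of tissue, which leaves the length of feeding unsettled. The labels do not give the sex of these mice, and the methods say only that most experiments used males unless specified.

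Ammonia from amino acids enters the urea cycle in the mitochondria of hepatocytes and leaves it in the cytosol as urea. Tyrosine, tryptophan and histidine are degraded largely in the cytosol, whereas the branched-chain amino acids leucine, isoleucine and valine are oxidized in mitochondria to acetyl-CoA, acetoacetate and propionyl-CoA. Methionine is first turned into the methyl donor S-adenosylmethionine and then, through homocysteine, into cysteine and taurine. Many of these genes are among the strongly expressed genes of the hepatocyte and are known to respond to feeding, glucagon and glucocorticoids.

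The values used here are the mean over both groups, the log2 fold change of LSD1-LKO over Control with its standard error (SE), and an adjusted p per gene, as DESeq2 gave them. The table holds no value per liver, so the spread between livers is seen only through the SE, and whether the groups overlapped in single livers cannot be shown. A level is given in CPM, that is, counts-per-million with the base mean of a gene as its count and the summed base means as the total. Group levels stated below were computed from the base mean and the fold change, on the assumption that the base mean is the average of both groups. The fold changes are shrunken toward 0 and therefore understate large differences of noisy genes. No SE is above 0.278 for any gene, so the SE and the intervals built on it may understate the spread of noisy genes.

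Kdm1a itself fell in LSD1-LKO, with a log2 fold change of -1.50 ± 0.16 (SE) and an adjusted p of 1.32e-19. Its level was 15.7 CPM in Control and 5.55 CPM in LSD1-LKO, and the direction of every ratio was read from this gene. Of 8 hepatocyte markers, none was at 0, Cyp2e1 fell (-0.66 ± 0.065) and Serpina1a rose (0.18 ± 0.067). None of the 6 Kupffer cell, 6 endothelial, 6 stellate, 5 cholangiocyte and 6 lymphocyte markers passed the threshold, and none was at 0. Summed over each list, the levels in Control and LSD1-LKO were 134763 and 120061 CPM for hepatocyte markers, 137 and 142 for Kupffer cells, 177 and 159 for endothelial cells, 267 and 281 for stellate cells, 65.2 and 65.0 for cholangiocytes, and 1.83 and 1.69 for lymphocytes. The hepatocyte sum is dominated by Alb, at 83181 and 71976 CPM and not past the threshold (adjusted p = 0.103). Cyp2e1 was at 11949 and 7580 CPM. The median log2 fold change of the 8 hepatocyte markers was 0.043, with 37.5% of them below 0. In bulk tissue, fewer cells of a type and less RNA per cell cannot be told apart, and the part of cell composition in the results was not tested.

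Of the 57 tested members, 8 were lower in LSD1-LKO at an adjusted p under 0.05 and none was higher. The members lower made up 14.0% of those tested, against 5.93% of all tested genes that were lower and 12.3% that were higher. Most members are strongly expressed, and among genes of at least 100 CPM 17.7% were lower and 11.2% higher. The members of that level numbered 46, of which 7 were lower (15.2%), a share near that background. At an unadjusted p under 0.05, 13 members were lower and 1 was higher, against 11.5% and 16.5% of all tested genes. The median log2 fold change was -0.044 over the members, -0.053 over tested genes of at least 100 CPM and -0.009 over all tested genes.

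**Figure D1:**
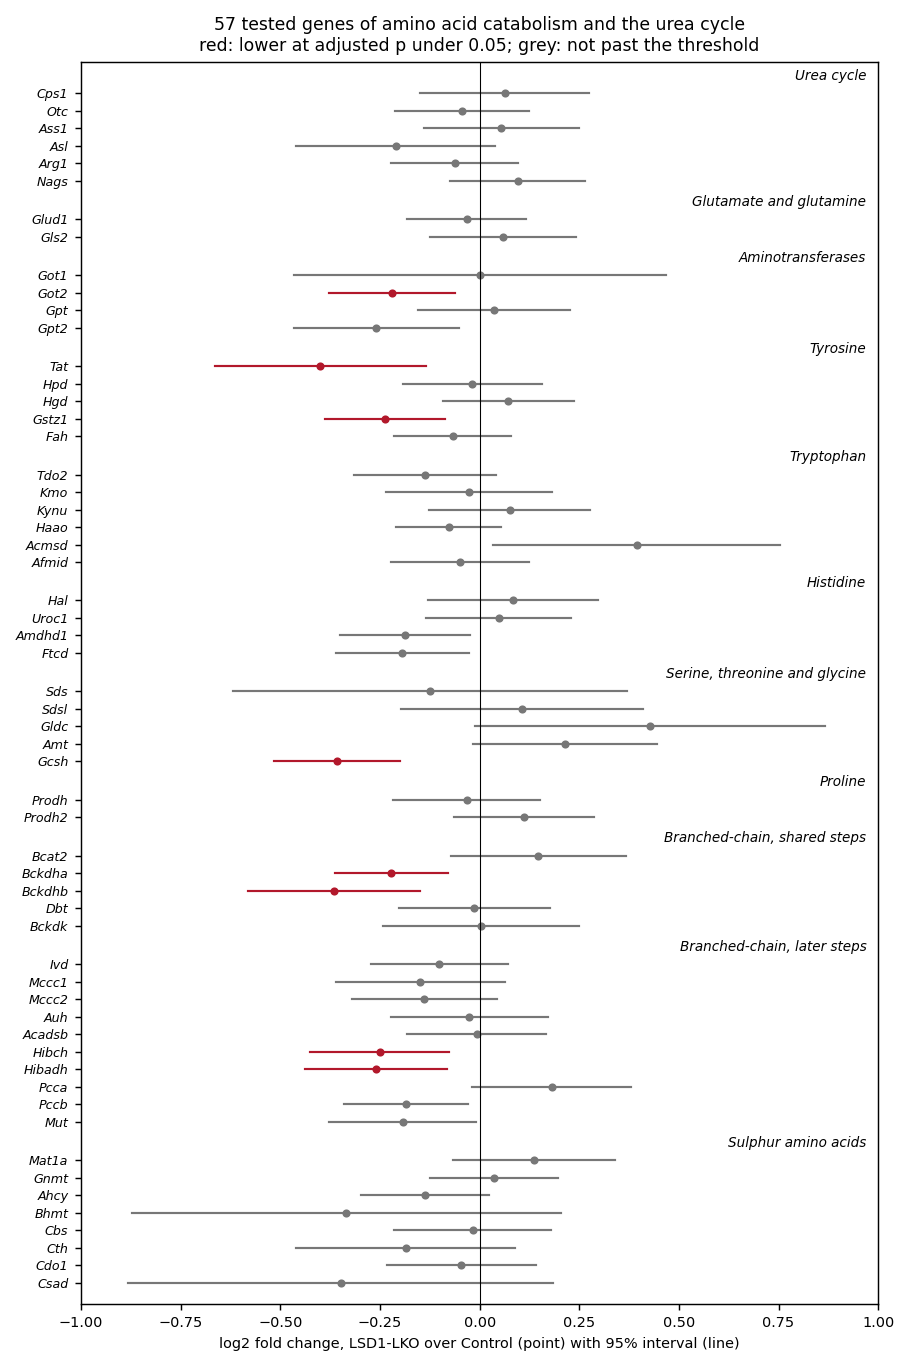
Log2 fold change of LSD1-LKO over Control for the 57 tested members, ordered by step, with the point as the estimate and the line as its 95% interval. The 8 members in red passed the threshold and all lie left of 0, between -0.40 and -0.22, and no gene of the urea cycle is among them.

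The falls were small. The 8 members fell by between 14.1% and 24.2%, and the largest fall on the log2 scale was that of Tat. Their number moved with the scaling: 3 members (Tat, Gcsh and Bckdhb) were lower once the median fold change of genes at 10 CPM or above was set to 0, with 573 of all genes lower and 1992 higher. After a trend on transcript length and GC content was taken out, 15 members were lower, with 1895 of all genes lower and 1330 higher, where the deposited values give 846 and 1754. Together the 58 members carried 3.07% of the summed base mean. Their summed level was 31165 CPM in Control and 30329 CPM in LSD1-LKO, a difference of -2.68% that carries no error because the table gives none for a sum.

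**Figure D2:**
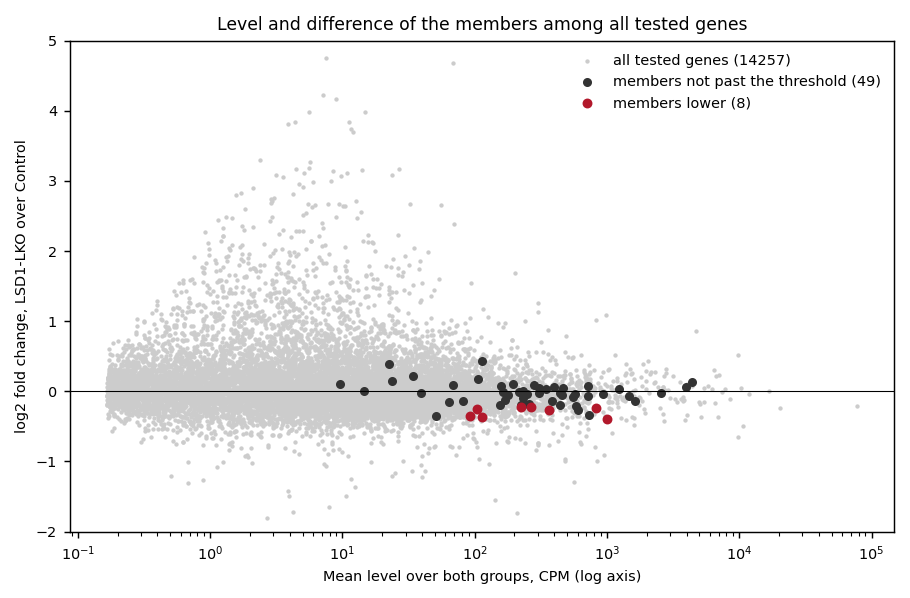
Mean level over both groups in CPM (log axis) against the log2 fold change of LSD1-LKO over Control for all 14257 tested genes in grey, the 49 members not past the threshold in black and the 8 members lower in red. The members sit toward the right of the plot, 46 of them at 100 CPM or more, and within 0.43 of 0 on the log2 scale.

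None of the 6 urea cycle genes passed the test. Cps1, which makes carbamoyl phosphate from ammonia and bicarbonate and opens the cycle, was at 3882 CPM in Control and 4054 CPM in LSD1-LKO, a log2 fold change of 0.063 ± 0.11 (adjusted p = 0.792). Nags, which makes the activator of Cps1, was at 66.5 and 71.0 CPM (0.096 ± 0.086). Otc, which joins carbamoyl phosphate to ornithine, was at 586 and 568 CPM (-0.044 ± 0.085). These 3 mitochondrial steps were thus on both sides of 0, and the 95% interval of each included 0. Cps1 and Nags turned below 0 once a trend on transcript length and GC content was taken out.

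In the cytosolic arm, Ass1, which joins citrulline to aspartate, was at 301 CPM in Control and 313 CPM in LSD1-LKO (0.055 ± 0.099). Asl, which splits argininosuccinate into arginine and fumarate, had the lowest estimate of the cycle, 621 against 537 CPM (-0.21 ± 0.13, adjusted p = 0.287). Arg1, the arginase that releases urea, was at 1509 and 1444 CPM (-0.063 ± 0.081). Summed over the 6 genes, the level was 6966 CPM in Control and 6988 CPM in LSD1-LKO, and the 95% interval of Cps1, the most abundant of them, ran from -9.86% to 21.0%.

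Of the enzymes that feed ammonia and aspartate to the cycle, 1 passed the test. Got2, the mitochondrial aspartate aminotransferase (chromosome 8, 95864133 to 95888401 in GRCm38.p6, the build of all coordinates given here), fell from 287 CPM in Control to 246 CPM in LSD1-LKO, a log2 fold change of -0.22 ± 0.081 and an adjusted p of 0.0387. Its cytosolic counterpart Got1 was at 232 CPM in both groups, but with an interval from -27.6% to 38.3% that includes the fall of Got2. The difference between both enzymes was not tested.

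The alanine aminotransferases did not pass the threshold. The mitochondrial Gpt2 was at 659 CPM in Control and 550 CPM in LSD1-LKO (-0.26 ± 0.11, adjusted p = 0.0692) and the cytosolic Gpt at 340 and 348 CPM (0.035 ± 0.098). Glud1, which releases ammonia from glutamate by oxidation, was at 950 and 929 CPM (-0.032 ± 0.076). Gls2, the liver-type glutaminase, was at 389 and 405 CPM (0.058 ± 0.093).

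Of the 5 genes of tyrosine breakdown, Tat and Gstz1 fell. Tat, the tyrosine aminotransferase of the first step and a classical glucocorticoid-responsive gene (chromosome 8, 109986078 to 109999804), was at 1138 CPM in Control and 862 CPM in LSD1-LKO, a log2 fold change of -0.40 ± 0.14 and an adjusted p of 0.0211. Gstz1, the maleylacetoacetate isomerase of the fourth step (chromosome 12, 87147161 to 87164723), fell from 894 to 758 CPM (-0.24 ± 0.077, adjusted p = 0.0151). The steps between and after them did not pass the test. Hpd, the dioxygenase of the second step, was at 2574 and 2542 CPM, Hgd, which opens the ring of homogentisate, at 703 and 739 CPM, and Fah, which releases fumarate and acetoacetate at the end, at 734 and 700 CPM, with estimates between -0.068 and 0.072 on the log2 scale.

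None of the 6 genes of the kynurenine route of tryptophan passed the test. Tdo2, its first enzyme, was at 1699 CPM in Control and 1545 CPM in LSD1-LKO (-0.14 ± 0.091, adjusted p = 0.344). Afmid, which forms kynurenine, and Kmo, Kynu and Haao, which carry it on to the precursor of NAD, had estimates between -0.078 and 0.075. Acmsd, which diverts that precursor away from NAD, was the only member higher at an unadjusted p under 0.05, at 19.3 and 25.4 CPM (0.39 ± 0.18), and its adjusted p was 0.13.

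The 4 genes of histidine breakdown were not past the threshold either, and their estimates split by position in the route. The first steps, Hal and Uroc1, had estimates of 0.083 ± 0.11 and 0.048 ± 0.093. The last steps, the imidazolonepropionase gene Amdhd1 and Ftcd, which passes the formimino group to folate, had estimates of -0.19 ± 0.084 and -0.19 ± 0.085, with adjusted p of 0.107 and 0.0988. Hal and Uroc1 turned below 0 without the trend on length and GC content, and whether early and late steps differ was not tested.

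The glycine cleavage system, a mitochondrial complex of 4 proteins, held the member with the smallest adjusted p. Gcsh, which encodes the lipoate-carrying H protein (chromosome 8, 116981967 to 116993498), was at 104 CPM in Control and 81.2 CPM in LSD1-LKO, a log2 fold change of -0.36 ± 0.081 and an adjusted p of 0.000152. Dld, which encodes the L protein that the system shares with the branched-chain and other ketoacid dehydrogenases and is no listed member, fell as well (-0.26 ± 0.090, adjusted p = 0.0288). The P protein gene Gldc, at 96.1 and 129 CPM (0.43 ± 0.22, adjusted p = 0.193), and the T protein gene Amt, at 31.4 and 36.4 CPM (0.22 ± 0.12, adjusted p = 0.222), had estimates above 0. The 95% intervals of both lay wholly above that of Gcsh, from -0.010 to 0.87 for Gldc and from -0.016 to 0.45 for Amt against -0.52 to -0.20 for Gcsh, but the difference between subunits was not itself tested. The serine dehydratase gene Sds (-0.12 ± 0.25) and the related Sdsl (0.11 ± 0.16) did not pass the test.

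For proline, the dehydrogenase Prodh was at 252 CPM in Control and 246 CPM in LSD1-LKO, and Prodh2, which acts on hydroxyproline, was at 187 and 201 CPM. Neither passed the test, with estimates of -0.032 ± 0.094 and 0.11 ± 0.089.

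The breakdown of the branched-chain amino acids held 4 of the 8 falls, among 15 members. That is 26.7% of them, where 17.7% of tested genes of at least 100 CPM and 5.93% of all tested genes were lower. No test of this share was made. The committed step is the mitochondrial branched-chain ketoacid dehydrogenase, whose E1 component is built of the products of Bckdha and Bckdhb. Bckdha (chromosome 7, 25629852 to 25658782) fell from 242 to 207 CPM (-0.22 ± 0.072, adjusted p = 0.0151). Bckdhb (chromosome 9, 83925111 to 84124240) fell from 128 to 99.0 CPM (-0.37 ± 0.11, adjusted p = 0.00758). Both E1 genes were thus lower.

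The other genes of the shared steps were not past the threshold. Dbt, the E2 core to which E1 binds, was at 164 CPM in Control and 162 CPM in LSD1-LKO (-0.014 ± 0.097). Bckdk, the kinase that switches the complex off, was at 14.5 CPM in both groups (0.003 ± 0.13). Bcat2, the aminotransferase of the first step, which the liver is known to express weakly, was at 22.6 and 25.0 CPM (0.15 ± 0.11). Its gene body overlaps 0610005C13Rik over 6210 bases, a gene at 163 CPM, and since the strand setting of the counting is not given, reads of both cannot be told apart.

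Beyond the dehydrogenase, Hibch and Hibadh, the 2 valine-specific steps among the members, both fell. Hibch, which frees hydroxyisobutyrate from CoA (chromosome 1, 52845038 to 52920986), fell from 114 to 95.9 CPM (-0.25 ± 0.090, adjusted p = 0.0312). Hibadh, which oxidizes it (chromosome 6, 52546230 to 52640300), fell from 395 to 330 CPM (-0.26 ± 0.091, adjusted p = 0.0276). None of the 4 leucine genes passed the test: Ivd, Mccc1, Mccc2 and Auh had estimates of -0.10, -0.15, -0.14 and -0.026. Acadsb, of the isoleucine branch, was at 216 and 215 CPM (-0.008 ± 0.088).

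The propionyl-CoA steps, which valine and isoleucine share with methionine and threonine, did not pass the threshold. Of the propionyl-CoA carboxylase subunits, Pccb had an estimate of -0.19 ± 0.079 (adjusted p = 0.0898) and Pcca of 0.18 ± 0.10 (adjusted p = 0.239). Mut, the methylmalonyl-CoA mutase, had an estimate of -0.19 ± 0.094 (adjusted p = 0.151). Over the later steps 9 of 10 members were below 0 (7 of 10 after recentring on genes of at least 10 CPM), with a median of -0.14, and over all 15 branched-chain members the median was also -0.14, against -0.032 for the other 42 members tested.

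A list of 14 further genes of the same pathway was examined beside the members, and 9 of its 13 tested genes fell and none rose, with a median of -0.29. Ppm1k, the phosphatase that reactivates the branched-chain ketoacid dehydrogenase, fell from 118 to 74.9 CPM (-0.66 ± 0.11, adjusted p = 1.04e-08). Acat1, the thiolase of isoleucine breakdown and ketone metabolism, fell from 563 to 432 CPM (-0.38 ± 0.071, adjusted p = 1.57e-06). Aldh6a1, the methylmalonate semialdehyde dehydrogenase that follows Hibadh in valine breakdown, fell from 527 to 383 CPM (-0.46 ± 0.089, adjusted p = 5.10e-06). Hsd17b10, the hydroxyacyl-CoA dehydrogenase of the isoleucine branch, fell from 180 to 128 CPM (-0.49 ± 0.11, adjusted p = 0.000200). Of the 28 members and other genes of the pathway that were tested, 13 fell (46.4%) and none rose, where 17.7% of tested genes of at least 100 CPM and 5.93% of all tested genes were lower. These counts moved with the scaling. After recentring on genes of at least 10 CPM, Bckdhb alone of the branched-chain members and 6 of the other genes were lower. Of all 14257 tested genes, 573 were lower and 1992 higher at that setting. The list holds enzymes that also serve fatty acid oxidation and ketone bodies, and it was drawn up with earlier results of these data known.

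**Figure D3:**
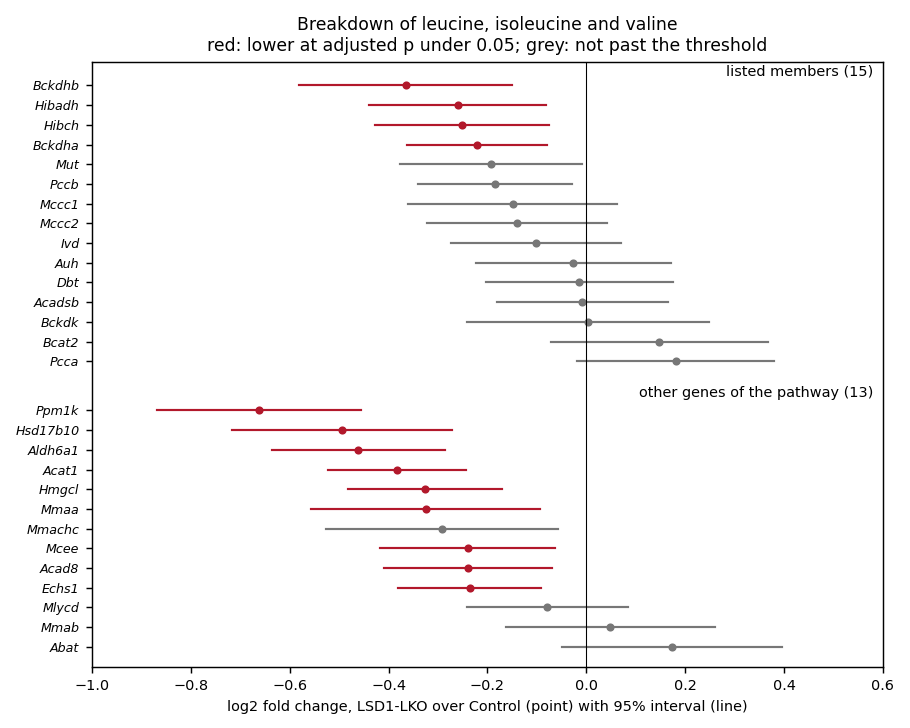
Log2 fold change of LSD1-LKO over Control with its 95% interval for the 15 branched-chain members (top) and the 13 other tested genes of the pathway (bottom), each block in order of the estimate. Of the members 4 are red (lower) and of the other genes 9, with Ppm1k lowest at -0.66, and no interval lies wholly to the right of 0.

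None of the 8 members of sulphur amino acid metabolism passed the test. Mat1a, which makes S-adenosylmethionine in liver, was the most abundant member at 4158 CPM in Control and 4570 CPM in LSD1-LKO (0.14 ± 0.10, adjusted p = 0.439). Gnmt, which consumes S-adenosylmethionine, was at 1223 and 1254 CPM (0.036 ± 0.082) and Ahcy, which clears its product, at 402 and 366 CPM (-0.14 ± 0.082, adjusted p = 0.273). In this methionine cycle the abundant genes were on both sides of 0.

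Bhmt, which remethylates homocysteine with betaine, was at 814 CPM in Control and 646 CPM in LSD1-LKO, but its SE of 0.27 left an interval from -45.4% to 15.2%. Cbs and Cth, the transsulphuration enzymes that turn homocysteine into cysteine, had estimates of -0.017 ± 0.10 and -0.19 ± 0.14. Cdo1, which oxidizes cysteine, had one of -0.046 ± 0.096, and Csad, of taurine synthesis, one of -0.35 ± 0.27 (adjusted p = 0.453).

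By the compartment of the encoded enzyme, 6 of 28 mitochondrial and 2 of 29 cytosolic members fell. Among members of at least 100 CPM the counts were 5 of 20 (25.0%) and 2 of 26 (7.69%), where 17.7% of all tested genes of that level were lower. The medians were close, -0.032 for mitochondrial and -0.050 for cytosolic members, so the counts of members past the threshold differed between the compartments more than the middle of the lists did. The counts of 6 and 2 became 2 and 1 after recentring on genes of at least 10 CPM, and 9 and 6 without the trend on length and GC content. No test between compartments was made, since the members were chosen with results known.

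The spread behind the fold changes was uneven. The SE had a median of 0.094 over the members and 0.109 over tested genes of at least 10 CPM. It was above 0.2 for 5 of the 56 members of that level, Got1, Sds, Gldc, Bhmt and Csad, against 144 of 7531 tested genes (1.91%). These 5 range from 51.0 to 730 CPM, and the reason for their spread was not tested. Csad overlaps Zfp740 over 1547 bases and Sds overlaps Plbd2 over 40 bases. For 51 of the 57 tested members the 95% interval lay within 1.5-fold of no change, and for all 57 within 2-fold. With no SE above 0.278 for any gene and every member estimate within 0.43 of 0, the 2-fold count was nearly fixed in advance. Bhmt and Csad, with an SE of 0.27 each, lie close to that limit. Of the 49 members not past the threshold, 21 had an interval within 1.2-fold, and for the other 28 the interval reached further.

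**Figure D4:**
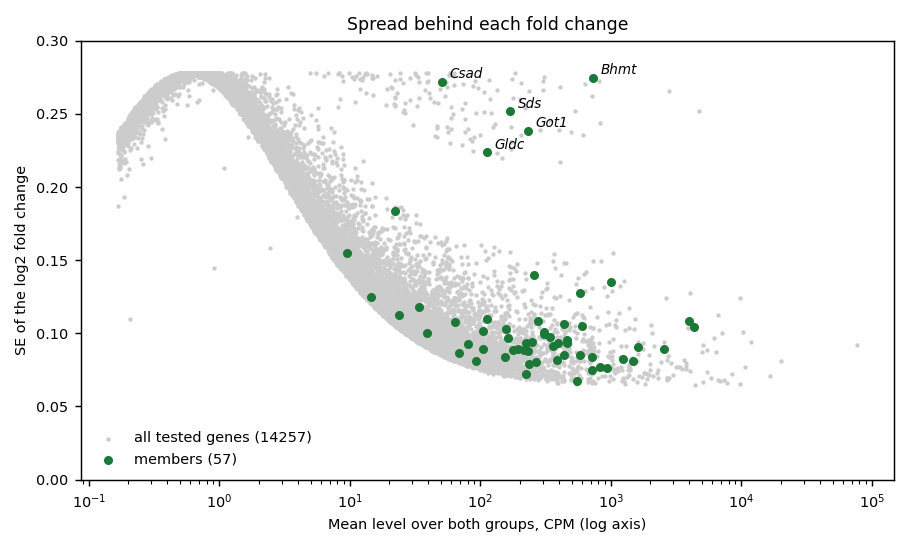
Mean level over both groups in CPM (log axis) against the SE of the log2 fold change for all 14257 tested genes (grey) and the 57 tested members (green), with the 5 members above an SE of 0.2 named. Bhmt, Csad, Sds, Got1 and Gldc lie between 0.22 and 0.27, and the highest SE among the other members is that of Acmsd at 0.18.

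Per kilobase of transcript, with the median length of the protein-coding transcripts of each gene, the highest members were Hpd at 3438 CPM per kb, Mat1a at 1360, Gnmt at 1197, Arg1 at 1000 and Cps1 at 714. With the longest transcript in place of the median, Hpd stood at 1822 CPM per kb and Mat1a at 1258, and the order of these 5 stayed the same. None of them was among the members that fell. The lowest expressed members, apart from Tdh, were Sdsl, Acmsd, Bckdk and Bcat2, with 7.77 to 14.1 CPM per kb.

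Outside the branched-chain pathway, 51 other tested genes of amino acid metabolism were examined, of which 11 fell (21.6%) and 10 rose (19.6%). The background is 17.7% lower and 11.2% higher among tested genes of at least 100 CPM. It is 9.85% and 12.0% among those of at least 10 CPM, and 5.93% and 12.3% among all tested genes. Both shares of the list lie above these. Its genes are of mixed level and were chosen with results known, so no single background matches them. Around ornithine and proline, Oat, the ornithine aminotransferase that links both to glutamate, fell from 804 to 479 CPM (-0.75 ± 0.14, adjusted p = 3.12e-06). Aldh18a1, which opens the synthesis of proline from glutamate, rose by 1.26 ± 0.26 on the log2 scale from a low level of 0.962 CPM in Control. Slc25a12, the mitochondrial aspartate/glutamate carrier known mainly from muscle and brain, rose (0.50 ± 0.12, adjusted p = 0.000610). Members on the catabolic side, Prodh and Prodh2, did not pass the test.

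For glutamine and asparagine, 3 of 6 genes rose and 1 fell. Asns, the asparagine synthetase, rose from 1.46 to 6.70 CPM (2.20 ± 0.25, adjusted p = 3.40e-16). Of the asparaginases, Asrgl1 rose (0.43 ± 0.12) and Aspg fell (-0.41 ± 0.10).

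In the list around phenylalanine and tyrosine, Pcbd1, which takes part in recycling the tetrahydrobiopterin cofactor, fell (-0.30 ± 0.077). Fahd1 fell as well (-0.24 ± 0.086). Of 9 tested genes of tryptophan and lysine, Gcdh, the glutaryl-CoA dehydrogenase, fell (-0.28 ± 0.090, adjusted p = 0.0157) and none rose.

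Of 10 genes of glycine, serine and threonine, 4 fell, Agxt2 (-0.34 ± 0.100), Dmgdh (-0.35 ± 0.11) and Dld among them, and Gcat, which follows threonine dehydrogenase, rose (0.61 ± 0.086, adjusted p = 5.35e-11). Among genes around hydrogen sulfide, Ethe1 rose (0.98 ± 0.14, adjusted p = 3.80e-10) and Mpst rose (0.43 ± 0.091), whereas Sqor (-0.35 ± 0.077) and Tst (-0.24 ± 0.086) fell. These genes thus moved in both directions.

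Promoter windows were read because the study is concerned with transcription at mitochondrial genes. RefSeq windows of 300 bases (250 before and 50 after a start, build GRCm38.p6) were found for 44 members, 49 windows in all. They were searched on both strands for CRE (TGACGTCA), CARE, the element read by ATF4 (TGATGNAA), C/EBP (TTGCNNAA), GABP/ETS (CCGGAAG) and NRF1 (GCGCATGC). None of the 49 windows held CRE, which 1.79% of all 32851 windows held. CARE was in 1 window, of Got1 (3.97% of all), C/EBP in 4, of Acadsb, Hal, Hgd and Prodh2 (10.8%), GABP/ETS in 4, of Amdhd1, Auh, Glud1 and Prodh (8.86%), and NRF1 in 2, of Glud1 and Pccb (2.71%).

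None of the 10 windows of the 8 members that fell held any of these letters, which says only that the letters are not in these windows. The median GC content of the 250 upstream bases was 59.2% in those windows, 55.6% over all member windows and 52.4% over all windows. The 250 bases before a start of the 2 members with the smallest adjusted p, Gcsh (chr8:116993499-116993748, minus strand) and Bckdhb (chr9:83924887-83925136, plus strand), are shown beside those of Tat (chr8:109990186-109990435, plus strand), the largest fall, and of Glud1 (chr14:34310477-34310726, plus strand), which did not pass the test and carries 2 motif matches. Sequences are from RefSeq, 5′ to 3′ on the strand of the gene, and capitals mark the GABP/ETS match at position -227 and the NRF1 match at position -132 from the start, both on the opposite strand. The Tat window belongs to a start inside the gene span given above, and Bckdhb has a second window that is not shown.
Gcsh: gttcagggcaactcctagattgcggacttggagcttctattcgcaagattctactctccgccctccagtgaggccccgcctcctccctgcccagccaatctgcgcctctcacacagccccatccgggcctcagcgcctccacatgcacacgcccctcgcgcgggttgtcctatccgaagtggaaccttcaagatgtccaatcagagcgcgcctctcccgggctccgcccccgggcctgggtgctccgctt
Bckdhb: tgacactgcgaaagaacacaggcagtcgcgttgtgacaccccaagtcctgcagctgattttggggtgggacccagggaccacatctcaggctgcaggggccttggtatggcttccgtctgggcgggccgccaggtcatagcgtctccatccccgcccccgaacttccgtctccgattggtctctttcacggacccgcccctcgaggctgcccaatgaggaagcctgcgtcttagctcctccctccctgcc
Tat: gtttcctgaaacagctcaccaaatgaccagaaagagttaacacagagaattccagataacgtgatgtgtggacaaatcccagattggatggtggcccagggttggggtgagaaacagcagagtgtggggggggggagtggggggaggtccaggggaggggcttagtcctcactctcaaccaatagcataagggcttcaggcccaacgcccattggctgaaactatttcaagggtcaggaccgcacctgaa
Glud1: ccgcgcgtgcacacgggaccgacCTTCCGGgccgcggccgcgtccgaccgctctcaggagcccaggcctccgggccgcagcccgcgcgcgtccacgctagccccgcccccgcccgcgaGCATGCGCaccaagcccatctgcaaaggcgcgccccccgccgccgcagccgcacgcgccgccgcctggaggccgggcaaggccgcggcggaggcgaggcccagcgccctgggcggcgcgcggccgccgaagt

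The windows differ in base composition, with 18 CG dinucleotides and 64.4% GC for Gcsh, 15 and 63.2% for Bckdhb, 46 and 82.0% for Glud1, and only 3 and 53.6% for Tat. The second Bckdhb window held 1 CG dinucleotide and 36.4% GC, and Gstz1 also has a window with 3 CG dinucleotides, so the windows of members that fell were of both kinds.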

How the data were processed

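Liver RNA of 3 Control and 3 LSD1-LKO mice was sequenced. The authors used STAR for mapping to mm10, StringTie for assembly and DESeq2, without covariates, for the comparison of both groups. Tool versions, the annotation, strandedness and how multiply mapped reads were handled are not given in these sources, so genes with near-identical copies may share reads. The deposited base mean is a signal, counts divided by size factors and averaged over the 6 livers. The deposited log2 fold change is shrunken, its SE and Wald statistic were deposited as a score, and each deposited p-value is two-sided. Adjusted p-values are the Benjamini-Hochberg values of the authors over the 14257 genes past their filter on low means.

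Which group is the numerator is not stated in the table, and the ratio was read as LSD1-LKO over Control because Kdm1a is lower. Depth per liver is unknown, no test between livers was possible, and tests planned for values per liver were not run. Labels do not say more of the replicates than their numbers, so p-values measure the spread between these samples. CPM is base mean over the summed base means (2.07e+07). Group levels, 95% intervals (1.96 SE), counts at an adjusted p under 0.05, medians and motif shares were computed with Python 3.11.15, scipy 1.17.1 and pandas 2.3.3, after the code for adjusted p-values was tested on simulated data. Coordinates and motif windows were taken from RefSeq (GRCm38.p6), transcript lengths from GENCODE vM21. RefSeq also gave symbols, by gene identifier, to rows without one where it held them, and 3 listed genes were matched through its synonyms. A loess trend of the fold change on transcript length and GC content (span 0.5) was fitted in R 4.3.3 as an alternative, over 13084 genes. The other alternatives were no filter, genes of at least 10 CPM, a threshold of 0.01 on the adjusted p, a threshold of 0.05 on the unadjusted p, and recentred fold changes.

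The members, their steps and the lists of other genes were chosen with earlier results of these data known. All members are accounted for. Of other lists, up to 4 changed genes with the smallest p are named. Some genes that the rule would name are counted but not reported here.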

Additional observations from a re-analysis of the deposited data

How the results depend on the processing

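Of the 8 members lower, Gcsh and Bckdhb passed the threshold under every alternative run, and no member called under any setting changed sign. Among the other members, estimates near 0 changed sign in 8 after recentring on genes of at least 10 CPM, in 4 after recentring on hepatocyte markers and in 12 without the trend on length and GC content. At an adjusted p under 0.01, 2 members were lower (2 mitochondrial, 0 cytosolic), and 5 of the other branched-chain genes. At that threshold 463 of all 14257 tested genes were lower and 1357 higher. At an unadjusted p under 0.05, 13 members were lower (4 cytosolic) and 1 was higher. Recentring on genes of at least 10 CPM (a shift of -0.043 on the log2 scale) left 3 members lower, Tat, Gcsh and Bckdhb (2 mitochondrial, 1 cytosolic), and 573 of all genes lower against 1992 higher, where the deposited values give 846 and 1754. Recentring on hepatocyte markers (0.043) gave 12 members lower (4 cytosolic) and 1291 against 1554 genes. Without the trend on length and GC content, 15 members were lower (6 cytosolic), and 1895 genes were lower against 1330 higher. These members were the 8 together with Gpt2, Haao, Amdhd1, Ftcd, Pccb, Mut and Ahcy, and the cause was not tested. With no filter on level, Got2 was past the threshold no more (its adjusted p lay just above 0.05) and 7 members remained. Without that filter 757 of 18441 genes were lower and 1669 higher. No urea cycle member was called lower under any alternative run.

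No paired analysis was possible because the table holds no value per liver, and for the same reason leaving out each liver in turn was not run. The precision is set by 3 livers per group and cannot be traced to single livers.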

Other observations

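Of 14 listed regulators of amino acid catabolism, 13 were tested. Klf15, a transcription factor known to promote amino acid catabolism in liver, fell from 180 CPM in Control to 143 CPM in LSD1-LKO (log2 fold change -0.34 ± 0.097, adjusted p = 0.00477). Cebpa, a factor of hepatocyte identity, rose from 337 to 398 CPM (0.24 ± 0.091, adjusted p = 0.0485). The other 11 did not pass the test. Among them were Hnf4a (0.25, adjusted p = 0.0829) and the glucagon receptor gene Gcgr (-0.22, adjusted p = 0.120). Ppargc1a was another (0.20, adjusted p = 0.332). The regulators lower and those higher made up 7.69% each, against 5.93% and 12.3% of all tested genes.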
